A study of Mus musculus with 4 samples.

Results

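The TEAD transcription factors and the cofactors that bind them or YAP1 were followed as a set of 10 genes: *Tead1*, *Tead2*, *Tead3* and *Tead4*; the Vestigial-like genes *Vgll3* and *Vgll4*; the angiomotin genes *Amot*, *Amotl1* and *Amotl2*; and *Ajuba*. They were taken by symbol from the 53703 features that the deposited count tables list, and each symbol had 1 row. The tables come from droplet-based scRNA-seq of mouse long bone stroma, 2 libraries of *Lats2*iΔEC mutants and 2 of controls, all at 12 weeks of age. Mutants carried floxed *Lats2* alleles (*Lats2* lox/lox) and the *Cdh5(PAC)-CreERT2* transgene, which is driven by an endothelial promoter, and had received tamoxifen. Controls were Cre-negative littermates that, by the study's methods, had received the same tamoxifen, although the sample labels call them untreated. The presence of the CreERT2 transgene and the loss of *Lats2* therefore cannot be told apart. Cells were released from the metaphysis of femur and tibia and depleted of lineage-positive, CD45+ and CD117+ cells. Mice of both sexes on a C57BL/6 background were used, a *Cdh5(PAC)-mT/nG* reporter had been bred into the line, and the labels do not say whether a library is 1 mouse or a pool.

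YAP1 and TAZ are transcriptional coactivators that cannot bind DNA by themselves. The Hippo kinases LATS1 and LATS2 phosphorylate them and hold them in the cytoplasm; once they enter the nucleus, they reach their target genes through the 4 TEAD proteins, which recognise the DNA letters CATTCC. VGLL4 competes with YAP1 for the TEADs and lowers target expression, while VGLL3 binds TEADs through a related domain. Angiomotins sit at cell junctions and on actin filaments and tether YAP1, and *Amotl2* is itself commonly listed as a YAP1 target. AJUBA is a LIM domain protein of junctions and focal contacts that binds LATS kinases and restrains them. In vessels this pathway is known for sensing stretch, flow and cell contact.

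*Amotl2* and *Ajuba* were the members higher in mutant endothelial cells (ECs), and the 200 bases before the start of their canonical transcripts are shown for that reason, read from the GRCm39 genome with GENCODE M39. Capitals mark GGAATG, which is CATTCC on the other strand.
*Amotl2* promoter, chr9:102594667-102594866, plus strand: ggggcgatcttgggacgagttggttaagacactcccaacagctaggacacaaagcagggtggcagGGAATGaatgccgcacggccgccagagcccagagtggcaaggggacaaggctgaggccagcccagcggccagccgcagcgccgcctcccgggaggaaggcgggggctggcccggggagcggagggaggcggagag
*Ajuba* promoter, chr14:54815016-54815215, minus strand: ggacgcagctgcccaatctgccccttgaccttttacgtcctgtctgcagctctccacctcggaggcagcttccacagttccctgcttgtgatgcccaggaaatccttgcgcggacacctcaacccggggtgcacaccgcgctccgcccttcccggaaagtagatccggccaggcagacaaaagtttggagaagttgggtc
The letters CATTCC were searched on both strands in the 250 bases before the start of the canonical transcript of each member. For *Vgll4*, *Amot*, *Amotl1* and *Amotl2* this window lies inside the annotated gene, which has transcripts that start farther upstream. They were found in 3 of the 10 members, and in 12.1% of 21770 promoters of protein-coding genes of the same length. The 4 matches follow with 10 bases on either side, again with the matched letters in capitals.
*Tead1*, 193 bases before the start, chr7:112278319-112278344, plus strand: gcacacccggCATTCCtagtatccgg
*Tead3*, 170 bases before the start, chr17:28569946-28569971, minus strand: cgacgagcgaGGAATGgggtgcgcgg
*Amotl2*, 235 bases before the start, chr9:102594622-102594647, plus strand: ggtgcctgtaGGAATGgagggtgaga
*Amotl2*, 135 bases before the start, chr9:102594722-102594747, plus strand: agggtggcagGGAATGaatgccgcac
The farther of the matches at *Amotl2* lies over an exon of another *Amotl2* transcript. A match of 6 letters is a description of the sequence, and no match in *Ajuba* says only that these letters are not in this window.

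The libraries held 69636600 and 78953446 UMIs in mutants and 83453507 and 85899079 in controls. Of 27707 barcodes with at least 1000 UMIs and 800 genes, 24599 also had under 15% mitochondrial and 5% hemoglobin UMIs and a complexity over 0.8. Each was given a cell type from its markers, which placed 17718 in 6 types: ECs, bone marrow stromal cells (BMSCs), osteoblasts (OBs), chondrocytes (CHOs), smooth muscle cells (SMCs) and fibroblasts (FBs). A further 1476 and 1629 barcodes of mutants but 619 and 659 of controls reached no type, and 3031 lay within 0.1 of a limit of the gate. The 1226 barcodes (4.98%) with the highest Scrublet scores, 0.8% of a library per 1000 of its barcodes, were taken as likely doublets and kept, and leaving them out is among the alternatives tried. No 2 libraries shared more than 16 of their barcodes. UMIs were summed per library and type, given as CPM (the UMIs of a gene scaled to a fixed total for that library and type), and compared between genotypes with edgeR's quasi-likelihood test. In ECs, *Lats2* stood at 92.1 and 97.0 CPM in mutants and at 135 and 123 CPM in controls, a log2 fold change of −0.37 ± 0.0791 (SE) with an adjusted p of 0.00279 by edgeR and the Benjamini-Hochberg method. The study reports a strong reduction of endothelial *Lats2* in mutants, in transcripts and by immunostaining. The counts used here include UMIs over introns, so this fold is not a measure of how complete the deletion was. *Cre-ERT2*, the transgene, stood at 53.9 and 49.6 CPM in mutant ECs and at 0.679 and 0.896 CPM in control ECs. Median scores over gated cells were highest for the type's own marker list in all 6 types, between 1.07 for FBs and 2.26 for SMCs, while those of the leukocyte and erythroid lists were below 0.

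In control bone the 4 TEAD genes peaked in different cell types, *Tead1* in BMSCs, *Tead2* and *Tead4* in ECs and *Tead3* in SMCs. *Tead1* was highest in BMSCs, at 262 and 249 CPM, followed by ECs at 183 and 184 CPM, and lowest in OBs, at 33.7 and 36.8 CPM. Neither control library put another type first. *Tead2* was highest in ECs, at 36.8 and 40.7 CPM, and next in BMSCs, at 13.9 and 13.3 CPM. In CHOs it stood at 0.281 and 0.326 CPM only, so that the highest and lowest type were far apart in both libraries. *Tead3* was highest in SMCs, at 37.0 and 33.8 CPM, and lowest in ECs, at 0.679 and 1.43 CPM. *Tead4* was close to an endothelial gene: ECs held 63.3 and 65.4 CPM, BMSCs 6.61 and 7.25 CPM, and the other 4 types at most 3.31 CPM. ECs thus carried *Tead1*, *Tead2* and *Tead4* transcripts and almost none of *Tead3*.

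The cofactors also differed between types. *Vgll3* was highest in SMCs, at 28.7 and 27.8 CPM there, with BMSCs at 6.94 and 6.30 CPM, FBs at 4.61 and 6.99 CPM and the other 3 types under 0.5 CPM. *Vgll4* was abundant in CHOs (226 and 226 CPM), BMSCs (231 and 217 CPM) and ECs (192 and 187 CPM), and lower in OBs, FBs and SMCs, which lay between 58.1 and 75.8 CPM. In leukocytes left in the libraries *Vgll4* stood at 70.2 to 136 CPM, and each other member at 18.9 CPM or less. *Amot* was highest in BMSCs, at 20.8 and 21.7 CPM, and *Amotl1* in ECs, at 229 and 197 CPM against 90.2 to 116 CPM in every other type. *Amotl2* was highest in BMSCs, at 120 and 110 CPM, lowest in OBs, at 17.4 and 18.2 CPM, and between 45.9 and 60.4 CPM in the other 4 types. *Ajuba* was highest in SMCs, at 22.3 and 19.3 CPM, and between 0.499 and 4.85 CPM elsewhere.

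**Figure D1:**
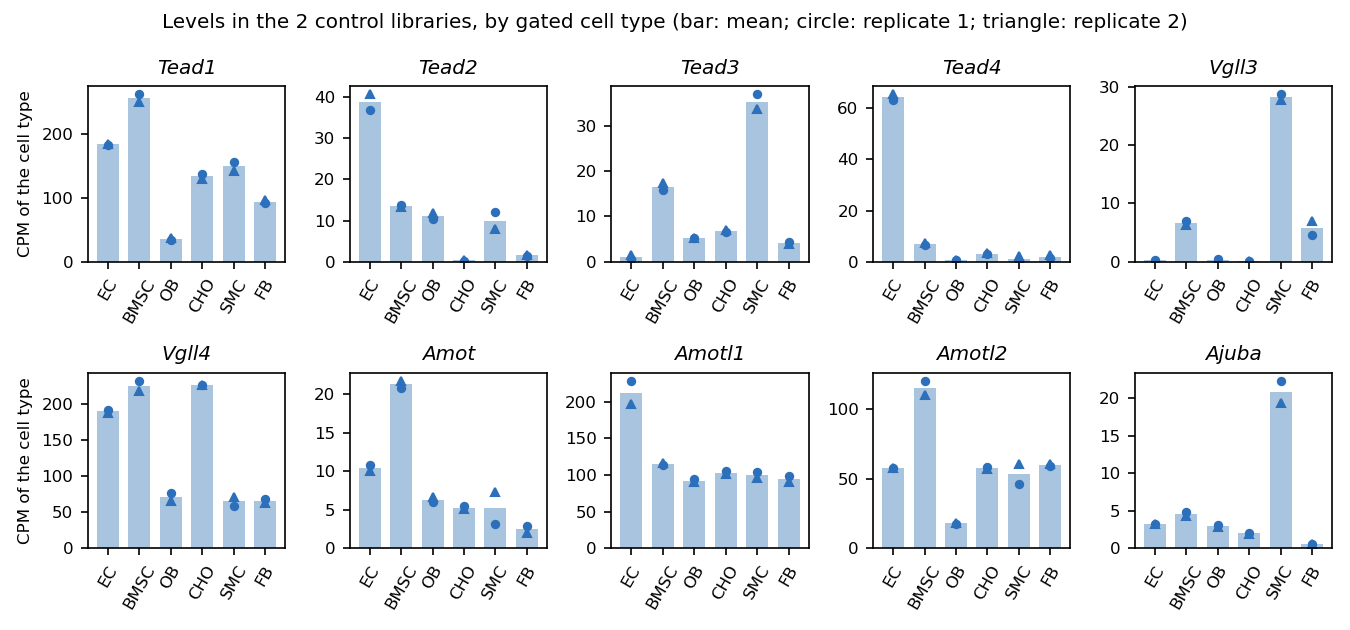
Levels of the 10 members in the 2 control libraries. Each panel is 1 gene; bars give the mean CPM of each gated cell type and points the 2 libraries. *Tead4* reaches 63.3 and 65.4 CPM in ECs and at most 7.25 CPM in any other type, while *Vgll3* and *Ajuba* peak in SMCs.

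Types were compared in pairs in 1 edgeR fit of the control libraries. Of 150 comparisons (15 pairs of types for each of 10 members), 127 passed an adjusted p of 0.05, against 55.0% of comparisons over all genes tested. A gene entered this fit through any type where it was high, and some members were nearly absent elsewhere, such as *Vgll3* in CHOs (0.056 and 0.054 CPM). Nothing is therefore read from this count. By member, between 11 and 14 of 15 pairs passed. Among neighbours in the order of CPM, SMCs and CHOs did not differ in *Tead1* (edgeR, adjusted p = 0.135), CHOs and OBs not in *Tead3* (0.891), BMSCs and FBs not in *Vgll3* (0.496), FBs and SMCs not in *Vgll4* (0.174), ECs and OBs not in *Amot* (0.671), SMCs and FBs not in *Amotl1* (0.255) and BMSCs and ECs not in *Ajuba* (0.149). For *Tead4*, only ECs and BMSCs and then BMSCs and CHOs differed from the next type in the order. In the TMM-scaled fit the order of CPM turned, with a difference that passed, for *Tead2* (OBs above BMSCs, a log2 difference of −0.58 for BMSCs over OBs), *Amotl1* (CHOs above BMSCs, and OBs above FBs), *Amotl2* (CHOs above ECs) and *Ajuba* (OBs above ECs). It also turned, without passing, for 5 of the neighbours above that did not differ, in *Tead1*, *Tead3*, *Vgll3*, *Amot* and *Amotl1*. The order of those neighbours depends on the scaling, whereas the top type of every member was the same on both scales. For *Vgll4* that was CHOs, whose CPM nearly equalled that of BMSCs while the fit set them 0.47 above BMSCs on the log2 scale.

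Between genotypes, 50 pairs of a member and a type had enough counts to test. Of these, 7 were higher and 9 lower in mutants. A member changed in every type but FBs, and *Amotl2* changed in the most types: it was higher in ECs, OBs and CHOs and lower in BMSCs. Within the types, 10 finer classes gave 74 pairs, of which 6 were higher and 9 lower. *Tead4* in SMCs and *Ajuba* in bone marrow sinusoidal ECs are among those called higher but reached the count needed for a test only in mutants, so that their calls support nothing and they are given by their counts. The share of all genes that passed in the same fit ran from 2.94% to 42.7% between types and classes and is given beside the first count in each, because in ECs, CHOs and SMCs a member that passes is not unusual. With 2 libraries against 2, an exact permutation test of a single value cannot give a p under 0.333.

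**Figure D2:**
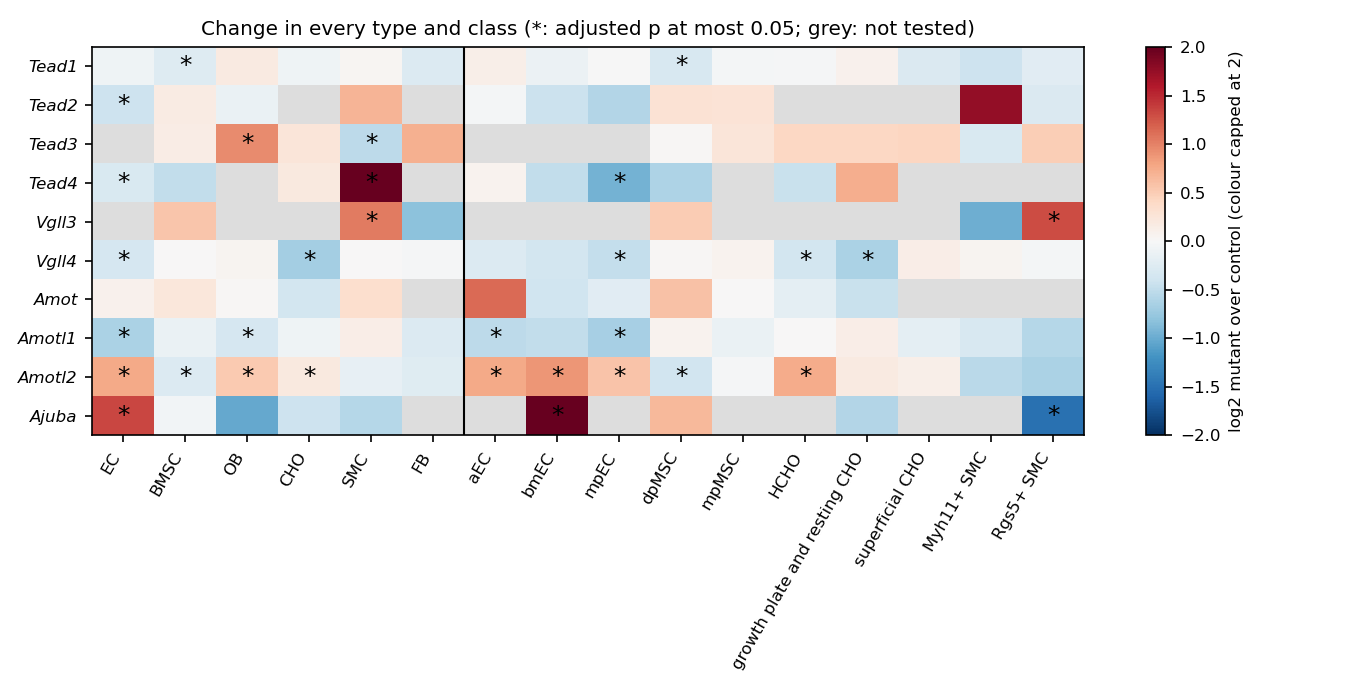
Log2 fold change, mutant over control, of the 10 members (rows) in the 6 types and, right of the black line, the 10 classes (columns). Red is higher and blue lower in mutants, a star marks an edgeR adjusted p of at most 0.05 and grey a pair with too few counts to test; the stars of *Tead4* in SMCs and *Ajuba* in bmECs rest on mutant counts alone. *Amotl2* is red with a star in all 3 EC classes and in HCHOs and blue with a star in BMSCs and dpMSCs.

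ECs, the cells in which *Lats2* was deleted, held the most changed members. *Amotl2* and *Ajuba* were higher and *Amotl1*, *Vgll4*, *Tead2* and *Tead4* lower, 6 of 8 members tested, where 37.4% of 14446 genes passed. The median log2 fold change of the 8 members was −0.20 beside 0.00 over all genes tested. *Amotl2* stood at 94.3 and 89.0 CPM in mutant ECs and at 57.9 and 57.4 CPM in control ECs, so both mutants lay above both controls with a gap wider than either pair. The log2 fold change was 0.75 ± 0.0772 (SE, edgeR, adjusted p = 1.05e-05). Thinned to 2000 UMIs per cell, 15.6% and 14.6% of mutant ECs and 8.42% and 9.20% of control ECs held an *Amotl2* UMI (43.0% and 42.4% against 26.6% and 26.5% before thinning). This took in 518 of 537 and 632 of 668 mutant ECs and 772 of 827 and 750 of 814 control ECs. In leukocytes, which had medians of 7989 to 9508 UMIs, the thinned share with *Amotl2* was at most 2.33%. *Ajuba* stood at 9.02 and 6.58 CPM in mutants and at 3.23 and 3.23 CPM in controls, from 46 and 41 against 19 and 18 UMIs. The groups did not overlap, and the log2 fold change was 1.33 ± 0.292 (SE, edgeR, adjusted p = 0.00310).

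*Amotl1*, *Tead2* and *Tead4*, the members whose control level was highest in ECs, all fell there. *Amotl1* stood at 127 and 131 CPM in mutants and at 229 and 197 CPM in controls (log2 fold change −0.64 ± 0.0831, SE, edgeR, adjusted p = 6.71e-05). The mutant libraries were alike and both lay well below the controls. *Vgll4*, the competitor of YAP1, stood at 145 and 140 CPM in mutants and at 192 and 187 CPM in controls (−0.33 ± 0.0708, adjusted p = 0.00250), again without overlap. *Tead4* stood at 48.0 and 50.4 CPM in mutants and at 63.3 and 65.4 CPM in controls (−0.31 ± 0.0811, adjusted p = 0.00991). *Tead2* stood at 29.4 and 25.5 CPM in mutants and at 36.8 and 40.7 CPM in controls (−0.42 ± 0.114, adjusted p = 0.0107). Both TEAD genes were lower in each mutant library than in either control. *Tead1* stood at 162 and 168 CPM in mutants and at 183 and 184 CPM in controls and did not pass although the groups were apart (−0.08 ± 0.0710, adjusted p = 0.434). *Amot* overlapped between groups, at 6.27 and 14.3 against 10.9 and 10.0 CPM, and *Tead3* and *Vgll3*, at no more than 2.16 CPM, were not tested.

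**Figure D3:**
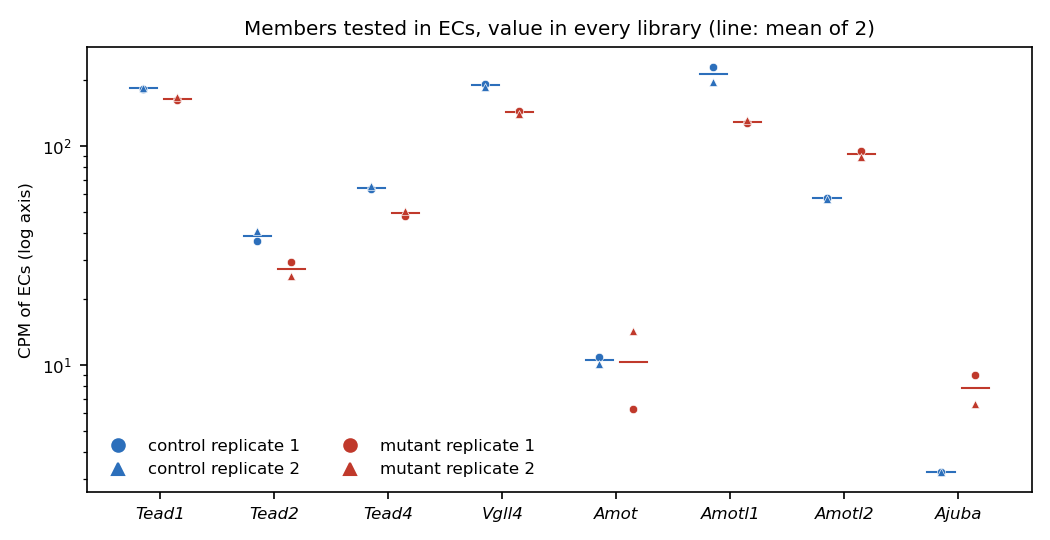
The 8 members tested in ECs, as CPM of each library on a log axis. Blue points are the 2 controls and red points the 2 mutants, with a line at the mean. *Amotl2* and *Ajuba* lie above the controls in both mutants, and *Amotl1*, *Vgll4*, *Tead2* and *Tead4* below them.

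The thinned shares moved the same way for *Amotl1* (22.8% and 21.0% of mutant ECs, 32.5% and 32.0% of control ECs) and *Vgll4* (19.9% and 19.9% against 28.8% and 29.7%). In leukocytes the thinned share with *Amotl1* was at most 2.08% and that with *Tead4* at most 0.7%, while *Vgll4* is expressed in them (9.86% to 30.2%). The unthinned shares of *Vgll4* in ECs were 56.4% and 53.0% against 55.4% and 56.4%, and mutant ECs had more UMIs per cell, with medians of 6796 and 6484 against 5477 and 5098.5. For *Tead4* the higher mutant share nearly met the lower control share (9.65% and 11.2% against 11.3% and 14.4%). DESeq2 called neither *Tead4* nor *Tead2*, the *Tead4* call was lost without mutant replicate 1 and the *Tead2* call without mutant replicate 2 or control replicate 2, whereas *Amotl2*, *Amotl1* and *Vgll4* passed under all 12 alternatives and *Ajuba* under the 11 that could be run for it, and each of these 4 also passed with each library left out. *Ajuba* was found in too few ECs for the setting that tests genes in 20% of cells. The summed level of the 16 EC markers was 10610 and 10660 CPM in mutant ECs and 12590 and 12330 CPM in control ECs, that of the 12 leukocyte markers 53.5 and 59.98 against 164 and 170 CPM, that of the 14 SMC markers 857 and 884 against 692 and 720.5 CPM, and that of the 14 OB markers 324.5 and 302 against 763 and 986 CPM. The 10 erythroid markers summed to more in mutants than in controls in all 6 types, in ECs to 441 and 498.5 against 183 and 196 CPM. Of the leukocyte markers 1 and 5 were at 0 in the mutants and 3 and 2 in the controls. Of the SMC markers, *Tagln* stood at 81.6 to 294 CPM in ECs, *Tinagl1* at 224 to 318 CPM and *Mylk* at 95.2 to 177 CPM. *Acta2* and *Myh11* stood at 15.2 CPM or less in ECs, so the SMC sum is not a measure of SMC RNA alone. The study reports *Tagln* as raised in mutant metaphyseal ECs. The part of these differences in the results for ECs was not tested.

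Gene length moved with the direction of change in all 6 types. Among genes tested in ECs, the median log2 fold change was 0.139 for the 6338 genes that span under 20 kb, −0.058 for the 6001 between 20 and 100 kb and −0.273 for the 2036 of 100 kb or more. Of the shortest group 24.6% were called higher and 8.03% lower, and of the longest 13.1% and 45.5%. *Ajuba* (10.2 kb) and *Amotl2* (16.8 kb) belong to the short group and rose, and *Amotl1* (103.1 kb) and *Vgll4* (109.4 kb) to the long group and fell. *Tead2* (17.9 kb) fell although it is short, and *Tead1* (227.5 kb) is the longest member and did not pass. In the other types the median of the genes of 100 kb or more was also below that of the genes under 20 kb, at −0.131 against 0.079 in BMSCs, −0.054 against 0.038 in OBs, −0.096 against 0.038 in CHOs, −0.16 against 0.094 in SMCs and −0.148 against 0.081 in FBs. Of the longest genes 26.2% were called lower in BMSCs, where the long *Tead1* fell by 0.26 and lay within the quartiles of that group (−0.291 to 0.099), and 35.9% in CHOs, where *Vgll4* fell by 0.68, below them (−0.37 to 0.319). The deposited counts include UMIs over introns, and the part of gene length in these results was not tested.

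**Figure D4:**
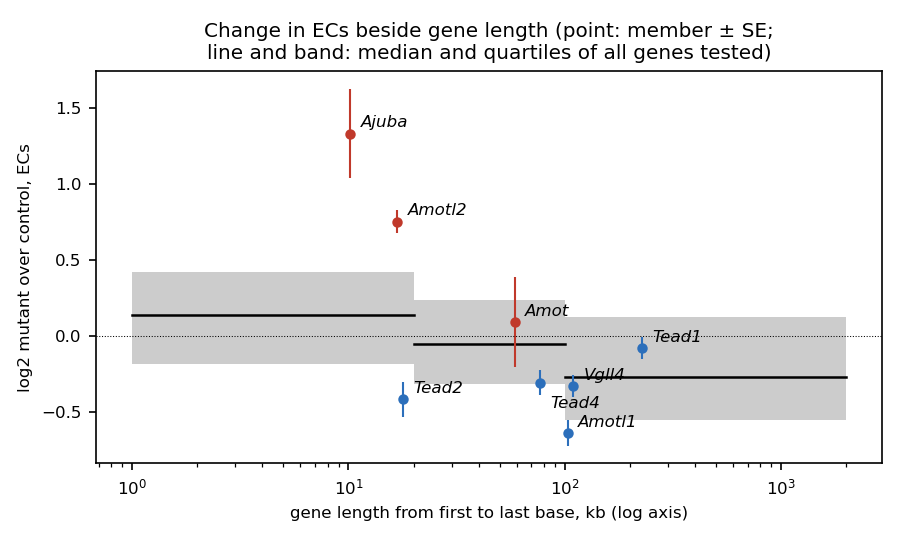
Log2 fold change in ECs against gene length on a log axis. Points are members with their SE (red above 0, blue below), and the black lines and grey bands give the median and quartiles of all genes tested in 3 length groups. *Amotl2* and *Ajuba* lie above the band of short genes, while *Vgll4* and *Tead1* lie within the band of long genes and *Amotl1* below it.

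Whether a change in ECs differed from that in other cells was tested as the genotype effect in ECs minus the mean effect in the other 5 types. For 3 members the difference passed, in a fit where 17.3% of all genes did. *Amotl2* rose by 0.76 ± 0.0936 (SE) more on the log2 scale in ECs (edgeR, adjusted p = 1.72e-06), and for *Ajuba* the fitted difference was 1.75 (adjusted p = 0.00179), but the mean it is set against includes FBs, where *Ajuba* had 3 and 1 UMIs in mutants and 2 and 2 in controls and could not be tested, so its size is not read. For *Amotl1* the difference was −0.48 ± 0.0806 (adjusted p = 0.000111). *Tead2* (−0.56, edgeR adjusted p = 0.0626), *Tead4* (−0.53, 0.347) and *Vgll4* (−0.18, 0.157) changed in ECs but did not pass in this contrast. The mean for *Tead2* includes CHOs and FBs and that for *Tead4* includes OBs and FBs, where each had too few UMIs to test. The mean for *Tead4* also includes SMCs, where controls held 4 UMIs in all, so nothing is read from these contrasts of *Tead2* and *Tead4*. For *Vgll4* the mean includes CHOs, where it fell by 0.68. Its fitted changes in BMSCs, OBs, SMCs and FBs lay between −0.03 and 0.06. Without either control library the *Ajuba* difference (1.68 and 1.82) no longer passed (adjusted p = 0.0848 and 0.0532).

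ECs were split by markers into arterial ECs (aECs), bone marrow sinusoidal ECs (bmECs) and metaphyseal ECs (mpECs). The bmECs made up 12.1% and 10.5% of mutant ECs and 27.1% and 27.6% of control ECs, and 41.0% and 42.1% of mutant but 26.2% and 24% of control ECs fell in no class. In aECs, 1 member was higher and 1 lower of 7 tested (16.6% of all genes passed), in bmECs 2 were higher of 8 (10.9%), *Ajuba* among them only through its mutant counts, and in mpECs 1 was higher and 3 lower of 7 (26.4%). *Amotl2* rose in every EC class. It stood at 110 and 93.4 against 57.5 and 70.2 CPM in aECs, at 100 and 104 against 52.2 and 64.8 CPM in bmECs and at 87.9 and 88.8 against 70.4 and 55.6 CPM in mpECs, mutants first. The genotypes did not overlap in any of the 3 classes, and the log2 fold changes were 0.76, 0.88 and 0.57 (edgeR, adjusted p = 0.00141, 0.00910 and 0.0113). Each of these calls was lost under DESeq2 and without 1 control library, replicate 1 in aECs and bmECs and replicate 2 in mpECs, and that in bmECs also with no filter on low counts.

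Among the EC classes *Ajuba* was tested only in bmECs, where it stood at 14.5 and 13.0 CPM in mutants and at 1.69 and 3.21 CPM in controls. The counts behind it were 10 and 9 UMIs against 3 and 6, which gives a ratio of 5.57 with a 95% interval of 2.40 to 14.0 for counting error alone. Since only the mutant sums carried it into the test, its call in bmECs supports nothing; DESeq2 did not make it, nor did the fits without a filter on low counts and without mutant replicate 1 or either control. *Amotl1* fell in aECs (101 and 121 against 178 and 160 CPM, log2 fold change −0.52, adjusted p = 0.00978) and in mpECs (145 and 163 against 285 and 234 CPM, −0.66, adjusted p = 0.00116). The call in mpECs passed under the 10 alternatives run for classes and with each library left out, and that in aECs was lost under DESeq2 and without mutant replicate 1 or control replicate 1. In bmECs it stood at 173 and 134 against 244 and 214 CPM and did not pass (−0.49, adjusted p = 0.0651).

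*Tead4* fell in mpECs, the capillaries next to the growth plate. There it stood at 27.6 and 35.6 CPM in mutants and at 64.7 and 66.8 CPM in controls, a log2 fold change of −0.94 ± 0.180 (SE, edgeR, adjusted p = 0.00118) that passed under the 10 alternatives run for classes and with each library left out. In aECs *Tead4* overlapped between genotypes, at 77.7 and 69.2 against 74.5 and 74.6 CPM, and in bmECs it stood at 31.9 and 30.3 against 48.3 and 45.0 CPM without passing (−0.50, adjusted p = 0.204). The effect in aECs was 0.78 ± 0.220 (SE) above the mean of that in bmECs and mpECs, with an unadjusted p of 0.00243 and an adjusted p of 0.0787, so the difference itself did not pass. No member passed in that comparison, in which 2.3% of all genes did, and *Amot* was the other member with an unadjusted p under 0.05. *Vgll4* fell in mpECs (170 and 141 against 231 and 227 CPM, −0.48, adjusted p = 0.00656) and was lower without passing in aECs (−0.27) and bmECs (−0.37). The mpEC call of *Vgll4* was lost under DESeq2 and without mutant replicate 2.

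**Figure D5:**
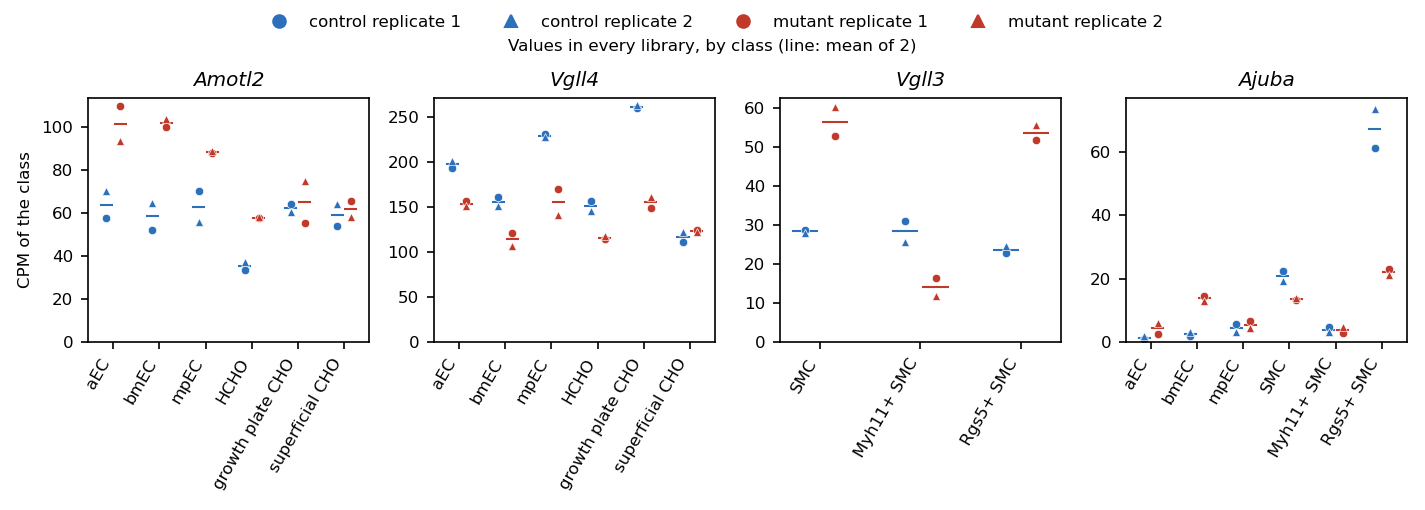
*Amotl2* and *Vgll4* in EC and CHO classes, and *Vgll3* and *Ajuba* in SMCs and their classes (*Ajuba* also in EC classes), as CPM of each library with a line at the mean. Blue is control and red mutant, circles replicate 1 and triangles replicate 2. *Amotl2* is higher in mutants in the 3 EC classes and HCHOs, while *Vgll3* is higher in mutant Rgs5+ SMCs (51.6 and 55.5 CPM) and lower in mutant Myh11+ SMCs (16.3 and 11.8 CPM).

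In SMCs, a type that by design keeps *Lats2*, *Vgll3* was higher and *Tead3* lower in mutants, and with *Tead4*, which was tested only through its mutant counts, 3 of 10 members tested passed, where 31.5% of all genes did. *Vgll3*, which like *Tead3* and *Ajuba* has its highest control level in SMCs, stood at 52.7 and 60.03 CPM in mutants and at 28.7 and 27.8 CPM in controls. Both mutant libraries lay well above both controls, a log2 fold change of 1.04 ± 0.161 (SE, edgeR, adjusted p = 3.24e-05) that passed under all 12 alternatives and with each library left out. *Tead4* was nearly absent from control SMCs, with 0 and 4 UMIs (0 and 2.42 CPM), and had 31 and 21 UMIs (9.34 and 5.34 CPM) in mutants, through which it entered the test. The count of 0 allows a level of up to 1.91 CPM in that library, and the ratio of the pooled levels was 5.78 with a 95% interval of 2.13 to 22.0 for counting error. Its fitted fold and p are not given, since a member tested only through the group where it is high had to differ. In barcodes too small to be cells *Tead4* stood at 2.68 to 5.23 CPM, and such free RNA was estimated at 1.40% to 2.10% of the UMIs of SMCs. *Tead3* stood at 23.2 and 24.7 CPM in mutants and at 37.0 and 33.8 CPM in controls (−0.52 ± 0.178, edgeR adjusted p = 0.0296). That call was lost under DESeq2, with no filter on low counts, under the stricter barcode filter, with types from clusters and without any single library. *Tead3* passed in neither of the SMC classes described below. Its log2 fold change was 0.49 in Rgs5+ SMCs (edgeR, adjusted p = 0.550) and −0.30 in Myh11+ SMCs (edgeR, adjusted p = 0.606).

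The make-up of the SMC gate differed between genotypes. Myh11+ SMCs, the contractile cells of arterial walls, were 21.9% and 21.9% of mutant SMCs but 53.5% and 57.0% of control SMCs, Rgs5+ SMCs, which carry pericyte genes, 29.5% and 30% against 18.1% and 22.6%, and those in no class 48.7% and 48.1% against 28.4% and 20.4%. The summed level of the 14 SMC markers was 17670 and 17190 CPM in mutants and 34400 and 36250 CPM in controls, that of the 12 leukocyte markers 171 and 124 against 14.0 and 24.8 CPM, and that of the 16 EC markers 296 and 337 against 266 and 275 CPM. Of the leukocyte markers, 3 in each mutant and 7 and 6 in the controls were at 0. Within Rgs5+ SMCs the SMC markers summed to 14510 and 14890 CPM in mutants and 27620 and 28850 CPM in controls, and the leukocyte markers to 272 and 245 against 32.4 and 51.8 CPM. Of the 12 leukocyte markers, 10 and 6 were at 0 in these mutant sums and 11 and 9 in the control sums, so few genes carry them. Within Myh11+ SMCs the SMC markers were closer, at 38000 and 37540 against 40300 and 41360 CPM, but the OB markers summed to 300.5 and 360 against 899 and 1129 CPM. Over all SMCs the CHO markers summed to 514.5 and 800 CPM in mutants and 1563 and 1006 CPM in controls. The part of these differences in the results for SMCs and their classes was not tested.

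Within SMC classes, *Vgll3* went in opposite directions. The 48.7% and 48.1% of mutant SMCs in no class were not summed apart. The level of *Vgll3* in them, and their part in its rise over all SMCs, are therefore not given. In Rgs5+ SMCs *Vgll3* stood at 51.6 and 55.5 CPM in mutants and at 22.7 and 24.5 CPM in controls (log2 fold change 1.30 ± 0.338, SE, edgeR, adjusted p = 0.0153). In Myh11+ SMCs it stood at 16.3 and 11.8 CPM in mutants and at 31.0 and 25.5 CPM in controls (−0.97 ± 0.354, adjusted p = 0.120). Neither class had an overlap between genotypes. The difference between the 2 effects, a comparison added after the data were seen, was 2.29 ± 0.499 (SE, adjusted p = 0.00841), in a fit where 4.44% of all genes passed; without mutant replicate 2 it was 2.00 and did not pass (adjusted p = 0.155). *Ajuba* was a gene of Rgs5+ SMCs, at 61.5 and 73.6 CPM in controls against 4.598 and 3.06 CPM in Myh11+ SMCs. It stood at 23.0 and 21.0 CPM in mutant Rgs5+ SMCs, well below the controls (−1.50 ± 0.308, adjusted p = 0.00324), the opposite direction to that in ECs. Over all SMCs *Ajuba* stood at 13.3 and 14.0 against 22.3 and 19.3 CPM and did not pass (−0.57, adjusted p = 0.0688). *Vgll3* and *Ajuba* were thus the members called in Rgs5+ SMCs, 2 of 8 tested (16.4% of all genes); the counts were 47 and 66 against 7 and 9 UMIs for *Vgll3* and 21 and 25 against 19 and 27 UMIs for *Ajuba*, and DESeq2 called neither. The *Vgll3* call was also lost under the stricter barcode filter (edgeR, adjusted p = 0.0723) and without either control library, and the *Ajuba* call without control replicate 2. In Myh11+ SMCs no member of 7 passed with edgeR or DESeq2 (6.27% of all genes did with edgeR), although 3 had an unadjusted p under 0.05: *Tead1*, *Tead2* and *Vgll3*. Over all genes tested in that class, 1597 of 8395 had an unadjusted edgeR p under 0.05. *Tead2* stood at 17.7 and 11.8 CPM in mutants and 3.45 and 5.11 CPM in controls there, from 13 and 10 against 3 and 5 UMIs, and it too was tested only through its mutant counts.

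*Amotl1* was lower in mutants in Rgs5+ SMCs (116 and 159 against 217 and 234 CPM, −0.57, edgeR adjusted p = 0.0527) and in Myh11+ SMCs (40.8 and 48.3 against 64.4 and 51.1 CPM, −0.32, adjusted p = 0.493) without passing in either, yet over all SMCs it stood at 92.8 and 118 against 104 and 95.5 CPM (0.13, adjusted p = 0.496). In SMCs against the other 5 types, a contrast added after the data were seen, 3 members passed (14.8% of all genes). *Tead3* did at −0.86 ± 0.227 and *Amotl1* at 0.45 ± 0.116 (SE, edgeR, adjusted p = 0.00950 and 0.00761), while the contrast for *Tead4* rests on the 0 and 4 UMIs of control SMCs and nothing is read from it. The size for *Tead3* is not read either, since the mean includes ECs, where it had 6 and 4 UMIs in mutants and 4 and 8 in controls and could not be tested. Neither *Tead3* nor *Amotl1* passed without control replicate 1 (−0.71 and 0.46; adjusted p = 0.168 and 0.0698). *Tead3* was also lost without mutant replicate 1, and *Amotl1* without mutant replicate 2 or control replicate 2.

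CHOs showed 1 large and steady change, a fall of *Vgll4*. It stood at 135 and 134 CPM in mutants and at 226 and 226 CPM in controls, values that barely differ within a genotype while the genotypes lie far apart, and its log2 fold change was −0.68 ± 0.0436 (SE, edgeR, adjusted p = 1.71e-07). Thinned to 2000 UMIs, 22.5% and 22.8% of mutant and 32.2% and 32.9% of control CHOs held a *Vgll4* UMI, against 73.1% and 71.9% and 82.1% and 81.1% before thinning. The effect was stronger than the mean of the other 5 types by −0.58 ± 0.0727 (SE, edgeR, adjusted p = 2.47e-06), in a contrast added after the data were seen where 17.1% of all genes and 1 member passed. *Amotl2* was the other member called in CHOs, 2 of 8 tested, where 42.7% of all genes passed. It stood at 60.5 and 65.6 against 58.2 and 56.5 CPM (0.20 ± 0.0564, adjusted p = 0.0122), a small rise that was lost with library totals, under DESeq2, with no filter on low counts, with types from clusters and without mutant replicate 2.

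Growth plate and resting CHOs made up 17.1% and 15.8% of mutant CHOs and 45.1% and 46.2% of control CHOs, hypertrophic CHOs (HCHOs) 27.5% and 28.6% against 19.7% and 18.0%, and superficial CHOs 18.1% and 19.9% against 9.36% and 9.48%. The 14 CHO markers summed to 64820 and 64320 CPM in mutant CHOs and 81930 and 83570 CPM in control CHOs, and the 13 FB markers to 2965 and 3245 against 1894 and 1982 CPM, and their part in the results was not tested. The fall of *Vgll4* was found within the first class, at 149 and 161 CPM in mutants and 259 and 263 CPM in controls (−0.63 ± 0.0672, SE, edgeR, adjusted p = 2.94e-06), and it was the only member of 8 called there (25% of all genes passed). In HCHOs *Vgll4* stood at 114 and 117 against 156 and 145 CPM (−0.36 ± 0.0703, adjusted p = 0.00525), a call that DESeq2 did not make. In superficial CHOs it stood at 124 and 122 against 111 and 122 CPM and did not pass (0.13 ± 0.120, edgeR adjusted p = 0.666). None of 5 members tested there passed with edgeR or DESeq2, where 2.94% of all genes did with edgeR. At an unadjusted edgeR p under 0.05 there were 0 members and 1796 of 11340 genes.

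HCHOs, the enlarged cells at the mineralising end of the growth plate, also had a rise of *Amotl2* like that of ECs in size. It stood at 57.8 and 57.9 CPM in mutants and at 33.4 and 37.1 CPM in controls, a log2 fold change of 0.74 ± 0.102 (SE, edgeR, adjusted p = 0.000694) that passed under the 10 alternatives run for classes and with each library left out. *Vgll4* and *Amotl2* were the 2 members called of 7 tested in HCHOs (27.1% of all genes). In growth plate and resting CHOs *Amotl2* overlapped between genotypes, at 55.5 and 74.9 against 64.1 and 60.5 CPM. The effect in HCHOs was 0.59 ± 0.169 (SE) above the mean of the other 2 classes, with an unadjusted p of 0.00319 and an adjusted p of 0.0570, so it did not pass; no member did in that added comparison, in which 5.12% of all genes passed. It passed under 5 of the other settings tried, among them the scaling to library totals.

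BMSCs, the reticular cells of marrow that support blood formation, had the highest *Tead1*, *Amot* and *Amotl2* of any type in controls. *Amot* did not pass there (0.23, edgeR adjusted p = 0.281). *Tead1* and *Amotl2* were lower in mutants, 2 of 10 members tested where 19.9% of all genes passed. *Tead1* stood at 213 and 209 CPM in mutants and at 262 and 249 CPM in controls (−0.26 ± 0.0582, SE, edgeR, adjusted p = 0.00343). *Amotl2* stood at 92.7 and 94.7 CPM in mutants and at 120 and 110 CPM in controls (−0.28 ± 0.0748, adjusted p = 0.0117). Neither overlapped between genotypes, but neither passed once either control library was left out, and DESeq2 did not call *Amotl2*. The share of all genes called in BMSCs also fell in each of those fits, with DESeq2 to 7.98% from 19.9%. In the contrast of BMSCs with the other 5 types, added after the data were seen, *Amotl2* (−0.52 ± 0.0884, adjusted p = 0.000646) and *Tead1* (−0.24 ± 0.0659, adjusted p = 0.0361) passed, where 4.17% of all genes did. The difference for *Amotl2* passed in each fit with a library left out and that for *Tead1* in none. *Vgll3* stood at 9.30 and 9.84 against 6.94 and 6.30 CPM in BMSCs and did not pass (0.55, adjusted p = 0.0804).

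The make-up of BMSCs differed between genotypes: Adipoq+ diaphyseal cells (dpMSCs) were 44.1% and 42.5% of mutant and 31.5% and 32.7% of control BMSCs, and Postn+ metaphyseal cells (mpMSCs) 12.9% and 14.0% against 16.3% and 17.1%. The 14 OB markers summed to 3431 and 3414 CPM in mutant BMSCs and 4522 and 4417 CPM in controls, the 14 CHO markers to 1051 and 774 against 659 and 548 CPM and the 10 erythroid markers to 675 and 728 against 286 and 340 CPM. The 15 BMSC markers themselves summed to 38880 and 38460 against 39220 and 39370 CPM. The part of these differences in the results for *Tead1* and *Amotl2* was not tested.

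The same 2 genes carried the calls in dpMSCs, 2 of 10 tested, where 9.55% of all genes passed. There *Tead1* stood at 214 and 203 against 259 and 268 CPM (−0.32, edgeR adjusted p = 0.00802) and *Amotl2* at 91.8 and 112 against 146 and 126 CPM (−0.39, adjusted p = 0.0255), both without overlap. Both calls were lost under DESeq2 and with no filter on low counts, that of *Tead1* also without control replicate 2 (edgeR, adjusted p = 0.106) and that of *Amotl2* without mutant replicate 1 or control replicate 1 (up to 0.257). In mpMSCs, with 60 and 85 mutant cells, none of 7 members passed with edgeR or DESeq2, none had an unadjusted p under 0.05, and 4.25% of all genes passed with edgeR. Over all genes tested in mpMSCs, 1779 of 11004 had an unadjusted edgeR p under 0.05. *Tead1* overlapped there, at 232 and 169 against 220 and 199 CPM. With its own cell types, the study reports wider changes of expression in mpMSCs than in dpMSCs. The lower share of genes called here in mpMSCs covers only the cells that this gate placed there.

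OBs, the bone-forming cells, had 3 members called of 8 tested (7.47% of all genes): *Tead3* and *Amotl2* higher and *Amotl1* lower. *Tead3* stood at 10.6 and 9.75 CPM in mutants and at 5.28 and 5.16 CPM in controls (0.94 ± 0.245, SE, edgeR, adjusted p = 0.0340). *Amotl2* stood at 25.6 and 25.6 against 17.4 and 18.2 CPM (0.52 ± 0.140, adjusted p = 0.0426), and *Amotl1* at 71.5 and 76.2 against 94.2 and 90.2 CPM (−0.33 ± 0.0922, adjusted p = 0.0498). In all 3 the genotypes were apart and the replicates close. In OBs the 14 OB markers summed to 207400 and 202900 CPM in mutants and 231400 and 227000 CPM in controls, the 16 EC markers to 98.1 and 50.6 against 36.1 and 32.0 CPM and the 15 BMSC markers to 913 and 1090 against 1244 and 1328 CPM, and the part of these differences in the results was not tested. These calls are weak, since DESeq2 made none of them and most were lost with any library left out, in a type with 164 and 189 mutant cells. The share of all genes called in OBs also fell in each of those fits, with DESeq2 to 3.41% from 7.47%. The contrast of OBs with the other 5 types called no member, with 4.49% of all genes called; *Tead3* (edgeR, adjusted p = 0.105), *Amotl2* (0.166) and *Tead1* (0.274) had an unadjusted p under 0.05.

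In FBs none of 6 members tested passed with edgeR or DESeq2, where 3.07% of all genes did with edgeR. *Tead1*, *Amotl1* and *Amotl2* had an unadjusted p under 0.05, and all 3 were lower in both mutants, for example *Tead1* at 71.2 and 76.3 against 91.4 and 96.1 CPM (−0.28, edgeR adjusted p = 0.151). Over all genes tested in FBs, 2124 of 12424 had an unadjusted edgeR p under 0.05. Against the other 5 types, in a contrast added after the data were seen, *Amotl2* (−0.45 ± 0.116, adjusted p = 0.0289) and *Vgll3* (−2.22, adjusted p = 0.0218) passed, with 3.02% of all genes. The difference for *Amotl2* was lost without any single library. That for *Vgll3* subtracts fitted effects in ECs, OBs and CHOs, where the gene had too few UMIs to test, so its size is not read; within FBs, with 7 and 17 UMIs in mutants and 16 and 28 in controls, *Vgll3* did not pass (−0.82, edgeR adjusted p = 0.353). The difference from the other types was −0.48 without mutant replicate 1 (edgeR, adjusted p = 1) and did not pass without either control library.

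The pathway around the members moved as follows in ECs, by lists whose choice is given with the processing, where 37.4% of all genes passed. Of 9 core genes 1 was higher and 4 lower. The 4 lower include *Lats2*, the gene deleted in mutant ECs, whose fall was set by the design, so nothing is read from this count. *Wwtr1*, which encodes TAZ, stood at 539 and 569 against 518 and 479 CPM (0.23, edgeR adjusted p = 0.0125). *Lats1* stood at 26.6 and 24.4 against 39.2 and 33.7 CPM (−0.44, edgeR adjusted p = 0.0103), while *Yap1* overlapped between genotypes at 59.8 and 69.9 against 60.9 and 67.9 CPM. Of 14 upstream regulators tested 2 were higher and 8 lower, with *Taok3* (−0.80), a kinase that activates Hippo kinases, and *Mpdz* (−0.79), a junction scaffold, the largest. Among the 7 other genes of the Ajuba, Zyxin and Vgll families, 5 were tested, of which *Wtip* (0.43) and *Zyx* (0.58) were higher and *Lpp* (−0.69) and *Limd1* (−0.53) lower. All 4 encode LIM domain proteins like AJUBA. Of 16 YAP1/TAZ target genes tested 12 were higher and 2 lower; 1 of the 12, *Ankrd1*, was tested only through its mutant counts. The list was drawn up with earlier results of these data known, so its direction is not independent evidence.

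Besides *Ankrd1*, the largest called changes of target genes were those of *Ccn2* (2.22), *Ccn1* (2.17), *Myof* (1.76), *Nt5e* (1.11), *Gadd45a* (0.98), *Nuak2* (0.89), *Dock5* (0.77), *Crim1* (0.73) and *Axl* (−0.71). *Ankrd1* had 116 and 26 UMIs in mutants and 1 and 0 in controls, so that its call supports nothing. *Ccn2* and *Ccn1* encode secreted matricellular proteins, and *Ccn2* stood at 404 and 380 CPM in mutants and at 77.9 and 100 CPM in controls. In the other types, 5 targets were higher and 4 lower of 17 tested in BMSCs (19.9% of all genes passed), 5 were higher and 0 lower of 15 tested in OBs (7.47%), 9 were higher and 5 lower of 18 tested in CHOs (42.7%), 6 were higher and 2 lower of 16 tested in SMCs (31.5%), *F3* among the higher only through its mutant counts (17 and 34 against 4 and 5 UMIs), and 2 and 1 of 16 in FBs (3.07%). *Ccn2* was also higher in BMSCs (0.88), Rgs5+ SMCs (2.21) and growth plate and resting CHOs (1.03), classes in which *Amotl2* was lower (BMSCs) or did not pass.

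In SMCs, of the 5 tested genes on the list of other Ajuba, Zyxin and Vgll family members 4 were lower and none higher, where 31.5% of all genes passed, with a median of −0.81 beside 0.00 over all genes. These genes were named after their values were seen, and the difference in SMC marker sums given for SMCs above stands beside them as well. *Wtip* stood at 295 and 264 against 553 and 564 CPM (−0.96), *Lpp* at 635 and 634 against 1230 and 1125 CPM (−0.85), *Limd1* at 174 and 172 against 317 and 308 CPM (−0.81) and *Zyx* at 68.7 and 66.4 against 113 and 117 CPM (−0.73; edgeR, adjusted p at most 3.40e-05 in each). *Trip6* (0.26, adjusted p = 0.308) did not pass. *Zyx* and *Wtip* were thus higher in ECs and lower in SMCs, and *Lpp* and *Limd1* lower in both; these differences between types were not tested. Within Rgs5+ SMCs *Zyx* overlapped between genotypes, at 54.9 and 36.1 against 16.2 and 40.9 CPM, and *Wtip* did not pass (−0.53, edgeR adjusted p = 0.0764), where 16.4% of all genes passed. *Lpp* was lower there, at 573 and 542 against 1082 and 916 CPM (−0.71, edgeR adjusted p = 0.00103), as was *Limd1*, at 185.5 and 172 against 282 and 273 CPM (−0.50, edgeR adjusted p = 0.0407).

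Likeness in pattern was measured as Pearson's r of log2(CPM + 1) over the 24 sums of 6 types and 4 libraries with each of about 9720 genes at 10 CPM or more; sums of 1 library share that library, and no p is given. The genes most like *Tead1* were *Etnk1*, *Spata5* and *Mapk8ip3* (r = 0.965, 0.965 and 0.964). Those most like the endothelial *Tead4* were *Prkab1*, *Ppp4c* and *Ralb* (0.965, 0.957 and 0.955), and those most like *Tead2* were *Lrch1*, *Ctsc* and *Kctd12b* (0.973, 0.969 and 0.968). *Tead3* was closest to *Arhgef17* (0.968), itself on the target list, and to *Cacna1c* and *Fam110b* (0.95 and 0.946), and *Vgll3* to *Cygb*, *Mrpl13* and *Col5a3* (0.949, 0.946 and 0.939). The genes nearest *Vgll4* were *Megf9*, *Mlxip* and *C430049B03Rik* (0.932, 0.926 and 0.922). For *Amot* they were *H2-Q4*, *Eepd1* and *Prr14l* (0.918, 0.901 and 0.897), for *Amotl1* *Gmeb2*, *Mid2* and *Ptk2* (0.951, 0.935 and 0.927) and for *Amotl2* *Cep83*, *Cyld* and *Lrrk1* (0.934, 0.931 and 0.927). *Ajuba* was most like *Actn1*, which encodes an actin crosslinker (0.943), followed by *Mpp2* and *AW011738* (0.931 and 0.910).

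In GRCm39, 5 of the 10 members overlap another gene. *Tead1* (chromosome 7 from 112278522 to 112506014) holds a miRNA gene on its own strand and *Amotl1* (chromosome 9 from 14453262 to 14556352) an unclassified transcript on its own strand, while lncRNA genes lie opposite *Tead1*, *Tead2*, *Tead4*, *Amot* and *Amotl1* and the coding gene *Cd37* opposite *Tead2* (chromosome 7 from 44865172 to 44883071). Counting used the strand of the reads. *Amotl2* (chromosome 9 from 102593836 to 102610617), *Ajuba* (chromosome 14 from 54804787 to 54815027), *Vgll4* (chromosome 6 from 114837589 to 114946955), *Vgll3* and *Tead3* overlap no other gene.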

How the data were processed

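Droplet-based scRNA-seq libraries (10x Chromium V3) of 2 *Lats2*iΔEC mutants and 2 controls were used as the authors deposited them, as unfiltered gene by barcode tables of estimated counts of UMIs. By the study's methods and the submitters' processing notes the authors trimmed reads with cutadapt 3.5, aligned and counted them with STARsolo 2.7.10a on mm39 with GENCODE annotation and the transgene sequences added, counted introns with the strand of the read and shared multimapping UMIs by expectation-maximisation, so 9.09% to 9.95% of entries were not whole. Counting introns raises the counts of long genes and of nuclear RNA.

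Barcodes were kept at 1000 UMIs, 800 genes, under 15% mitochondrial and 5% hemoglobin UMIs and complexity over 0.8. A marker score (mean z of log1p counts per 10000, z capped at 5) of at least 0.5 and 0.25 above the next list set the type, and 0.25 and 0.1 the class within it; a second type at 0.75 made a barcode mixed. Estimated counts were summed per library and class and rounded. Mutants and controls were compared by edgeR 4.0.16 (R 4.3.3; TMM, filterByExpr, quasi-likelihood F test, all genes adjusted by Benjamini-Hochberg, called at 0.05), 1 fit per class over its 4 sums. Differences between effects came from 1 fit over all types or classes concerned, with library within genotype as a block. The comparison of levels between types in controls also had library as a block. Scores, clusters, levels and figures used Python 3.11.15, numpy 2.4.6, pandas 2.3.3, scanpy 1.11.5, leidenalg 0.10.2 and matplotlib 3.10.9.

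The members and all marker and pathway lists were chosen with earlier results of these data known. Every member was described; of the pathway lists, the rule named up to 12 genes in ECs and 3 in another class with the largest called change, *Lats2*, *Lats1* and *Cre-ERT2* as checks, and for each member the 3 genes with the most similar pattern. The LIM domain genes, *Wwtr1* and *Yap1* were added after their values were seen. The labels do not say whether replicates are separate mice or pools, so p-values measure the spread between libraries. Replicates differed beyond sampling noise, with chi-square values of 1.61 to 4.36 per gene. On data simulated for ECs (14102 genes) the test recovered 10.5% of log2 changes of 0.5 and 75.5% of changes of 1, and for SMCs (11640 genes) 11.1% and 68.8%. The simulation used the same dispersion for every gene and few changed genes, in ECs 95 by 0.5 and 98 by 1. In the real ECs 37.4% of genes passed, so these shares do not measure the power in these data. Alternatives were library totals, RLE size factors, DESeq2 1.42.0 (the study's test), no filter on low counts, genes in 20% of cells, a replicate block, barcode filters, a stricter gate, types from clusters, doublets left out, free RNA subtracted and each library left out. Intervals and floors cover counting error only. Protein sequences were not used here.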

Additional observations from a re-analysis of the deposited data

Results flagged for a closer look

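For the members below the difference between cell types in the genotype effect was itself tested, as a contrast within 1 edgeR fit, and passed an adjusted p of 0.05. Values are differences in log2 fold change between the first type and the mean of the other types. In ECs these were *Amotl2* at 0.76, *Ajuba* at 1.75 and *Amotl1* at −0.48, of which that of *Ajuba* includes FBs, where it had too few UMIs to test, and did not pass without either control library (adjusted p = 0.0848 and 0.0532). The comparisons that follow were added after the data were seen. In BMSCs *Amotl2* had a difference of −0.52 and *Tead1* one of −0.24, which was lost without any single library. In CHOs *Vgll4* had a difference of −0.58. In SMCs they were −0.86 for *Tead3* and 0.45 for *Amotl1*, neither of which passed without control replicate 1. That of *Tead3* includes ECs, where it had too few UMIs to test. Within SMCs *Amotl1* itself did not pass (0.13, edgeR adjusted p = 0.496), and the mean it is set against includes ECs, where its change was −0.64. The fit also gave 2.92 for *Tead4*, which rests on 0 and 4 UMIs in control SMCs, was lost without the same library and supports nothing. In FBs they were −0.45 for *Amotl2*, lost without any single library, and −2.22 for *Vgll3*, which rests on types with too few UMIs to test and was −0.48 without mutant replicate 1 (adjusted p = 1). Between Rgs5+ and Myh11+ SMCs the difference was 2.29 for *Vgll3*, and it was 2.00 and did not pass without mutant replicate 2 (adjusted p = 0.155). The *Amotl2* differences in ECs and in BMSCs, which have opposite signs, passed with each library left out. Each is set against a mean that includes the other type. The change of *Amotl2* within BMSCs (−0.28) was lost under DESeq2 and without either control library. The contrasts share the same sums, so they are not independent of each other.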

How the results depend on the processing

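No member reversed its direction under any alternative in a type or class where it was called. Of 31 called pairs of a member and a type or class, 10 passed under every alternative run for them and with each library left out: *Vgll4*, *Amotl1*, *Amotl2* and *Ajuba* in ECs, *Vgll4* in CHOs, *Vgll3* in SMCs, *Tead4* and *Amotl1* in mpECs, *Amotl2* in HCHOs and *Vgll4* in growth plate and resting CHOs. The stricter gate and types from clusters were not run for classes, which leaves 10 alternatives there against 12 for types, and *Ajuba* in ECs has 11, since it is in too few cells for the setting of 20% of cells. DESeq2 lost 20 and leaving out some library lost 20. Of 93 pairs not called, 16 passed under some setting. The cause of these changes was not tested.

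With DESeq2 the called pairs over the 6 types numbered 7 instead of 16, and those over the 10 classes 4 instead of 15. By type, DESeq2 called 1 member in BMSCs, 0 in OBs, 1 in CHOs and 1 in SMCs. In OBs the replicate block left 0 of 3, the stricter gate 1 and types from clusters 0. In CHOs no filter on low counts left 1 of 2 and types from clusters 1, and in SMCs the genes found in 20% of cells left 1 of 3. With each library left out in turn, the called pairs ranged from 9 to 11 over the 6 types, 10 to 17 over the classes, 0 to 2 in BMSCs, 0 to 1 in OBs, 1 to 3 in CHOs and 1 to 2 in SMCs.

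For differences between types, ECs against the others had 5 members called with library totals instead of 3, BMSCs 1 instead of 2 with library totals and 1 with RLE size factors, OBs 1 instead of 0 with doublets left out, CHOs 2 instead of 1 with no filter on low counts and 2 with genes in 20% of cells, and FBs 1 instead of 2 with no filter on low counts and 1 with the stricter barcode filter. HCHOs against the other CHO classes had 1 instead of 0 with library totals, no filter on low counts, the rule alone, doublets left out and genes in 20% of cells. With a library left out the counts were 1 in every fit for BMSCs, 1 to 2 for CHOs, 0 to 2 for SMCs, 0 to 1 for FBs and 0 to 1 for Rgs5+ against Myh11+ SMCs.

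Replicate numbers did not pair the libraries, since correlations of deviations between same-numbered libraries ran from −0.0181 to 0.0472. The replicate block left 13 called pairs over the 6 types and, over types and classes, lost 3 and gained 5. Over all genes, edgeR and DESeq2 called 5405 and 2877 in ECs, 3082 and 1237 in BMSCs, 1012 and 462 in OBs, 7453 and 4176 in CHOs, 3756 and 1932 in SMCs and 381 and 133 in FBs. Without a filter on low counts the numbers fell to 30 from 1108 in bmECs, 145 from 1179 in dpMSCs and 0 from 468 in mpMSCs, where 1638 genes had an unadjusted p under 0.05 and DESeq2 called 138. Scaling to library totals moved the median of all genes from −0.009 to −0.13 in growth plate and resting CHOs. Members with too few UMIs could not be tested, which limits *Tead3* and *Vgll3* in ECs and *Ajuba* in aECs and mpECs.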
